A study of Homo sapiens with 4 samples.

Results

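The Hippo pathway genes examined were the transcription factors TEAD1, TEAD2, TEAD3 and TEAD4, the coactivators YAP1 and WWTR1 (which encodes TAZ), and 4 widely used YAP/TAZ targets, CCN1, CCN2, ANKRD1 and AMOTL2. The data were CUT&RUN peak lists, in which a nuclease directed by an antibody releases the DNA next to a chromatin protein. The cells were BJ, an established line of human foreskin fibroblasts, that had expressed an introduced protein for 48 h. One group had received SOX2 with a V5 tag and the other its DNA-binding domain alone with the same tag (SOX2-DBD), with 2 samples per group and the V5 antibody in both. Full lists were read for replicate 1 of each group, and a further SOX2 list named as down-sampled was read for its positions. How the proteins were introduced, and a V5 profile of cells with neither protein, were not among the data used here. Intervals were selected by position, as those overlapping a gene body or the 50 kb on either side of it (hg19 coordinates, GENCODE release 44 mapped to GRCh37). In all, 73 of 58827 distinct intervals met this rule. Of these, 45 were SOX2-only, 27 were shared, meaning that the same interval stood in both lists, and 1 was DBD-only.

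The TEAD proteins bind DNA at the sequence GGAATG but activate transcription only with a coactivator, and YAP and TAZ are the coactivators that Hippo signalling controls. When the kinases of the pathway are active, YAP and TAZ are phosphorylated and held in the cytoplasm. In fibroblasts on a stiff surface they enter the nucleus, join the TEAD proteins and raise the expression of CCN1, CCN2, ANKRD1 and AMOTL2. SOX2 is a high-mobility-group protein of pluripotent and neural progenitor cells that can bind its sites in closed chromatin. Expression of the 10 genes was not measured, and an interval near a gene does not show that the gene responds to it.

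Of the shared intervals, the DBD-only one, the SOX2-only interval of highest signal at each gene and those at starts, the following carried in the 200-bp window at their centre the SOX core sequence together with a TEAD or AP-1 sequence, or lay within 1 kb of an annotated start of their own gene. The SOX core was sought as ACAAAG or ACAATG, the TEAD sequence as GGAATG, and the sequence of AP-1 (the FOS and JUN dimer) as TGACTCA or TGAGTCA, all on both strands. The windows are read 5′ to 3′ on the plus strand of GRCh37, and capitals mark every match to these sequences. The first 8 hold matches and show how the 3 kinds of sequence are placed. The 3 after them lie at starts of YAP1 or WWTR1 and hold none.
CCN2, shared interval, chr6:132317251-132317450: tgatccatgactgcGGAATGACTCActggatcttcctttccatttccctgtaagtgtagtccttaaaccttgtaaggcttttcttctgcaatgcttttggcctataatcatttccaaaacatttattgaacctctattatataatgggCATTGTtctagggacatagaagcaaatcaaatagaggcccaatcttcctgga
CCN2, shared interval, chr6:132301287-132301486: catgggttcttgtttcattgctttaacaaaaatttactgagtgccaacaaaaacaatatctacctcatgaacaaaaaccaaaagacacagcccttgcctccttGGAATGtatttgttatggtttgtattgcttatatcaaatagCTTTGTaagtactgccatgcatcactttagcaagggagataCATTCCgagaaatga
WWTR1, shared interval, chr3:149258768-149258967: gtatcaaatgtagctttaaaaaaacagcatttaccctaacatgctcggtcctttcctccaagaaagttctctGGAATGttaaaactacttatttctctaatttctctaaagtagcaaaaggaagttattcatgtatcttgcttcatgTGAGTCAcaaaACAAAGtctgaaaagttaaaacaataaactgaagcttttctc
YAP1, shared interval, chr11:101982895-101983094: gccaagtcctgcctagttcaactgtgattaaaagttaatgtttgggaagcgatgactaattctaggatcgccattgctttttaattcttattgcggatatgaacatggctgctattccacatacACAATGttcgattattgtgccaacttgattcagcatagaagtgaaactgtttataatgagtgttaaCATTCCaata
TEAD1, shared interval, chr11:12777825-12778024: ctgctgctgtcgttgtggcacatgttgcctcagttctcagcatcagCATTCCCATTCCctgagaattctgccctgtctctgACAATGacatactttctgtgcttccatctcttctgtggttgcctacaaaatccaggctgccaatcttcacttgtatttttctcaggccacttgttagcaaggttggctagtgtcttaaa
TEAD1, SOX2-only interval, chr11:12930659-12930858: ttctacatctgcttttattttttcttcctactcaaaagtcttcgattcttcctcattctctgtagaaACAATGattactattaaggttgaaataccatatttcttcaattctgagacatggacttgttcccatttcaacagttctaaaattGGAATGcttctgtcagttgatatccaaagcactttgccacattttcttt
TEAD2, shared interval, chr19:49801151-49801350: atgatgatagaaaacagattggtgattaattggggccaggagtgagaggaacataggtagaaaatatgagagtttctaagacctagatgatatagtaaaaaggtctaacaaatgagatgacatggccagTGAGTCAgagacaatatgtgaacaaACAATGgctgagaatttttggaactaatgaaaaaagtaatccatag
TEAD4, SOX2-only interval, chr12:3031586-3031785: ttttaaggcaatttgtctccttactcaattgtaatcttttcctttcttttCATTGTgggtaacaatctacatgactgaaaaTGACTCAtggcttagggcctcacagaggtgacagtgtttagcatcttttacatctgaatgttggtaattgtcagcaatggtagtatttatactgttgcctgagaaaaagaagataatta
YAP1, shared interval, chr11:102096961-102097160: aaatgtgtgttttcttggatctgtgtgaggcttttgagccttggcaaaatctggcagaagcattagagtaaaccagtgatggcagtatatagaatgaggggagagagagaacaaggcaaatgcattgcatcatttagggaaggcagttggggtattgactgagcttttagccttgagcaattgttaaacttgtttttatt
WWTR1, shared interval, chr3:149258043-149258242: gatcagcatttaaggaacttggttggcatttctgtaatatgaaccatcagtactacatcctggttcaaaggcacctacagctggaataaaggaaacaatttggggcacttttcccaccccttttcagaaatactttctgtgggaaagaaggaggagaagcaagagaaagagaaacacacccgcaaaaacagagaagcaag
WWTR1, SOX2-only interval, chr3:149455338-149455537: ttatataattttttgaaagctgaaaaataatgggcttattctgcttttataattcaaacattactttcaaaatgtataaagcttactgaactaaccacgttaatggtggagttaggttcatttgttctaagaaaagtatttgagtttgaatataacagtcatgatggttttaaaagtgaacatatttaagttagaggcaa
A further window, of the DBD-only interval at WWTR1, met the same rule and overlaps untranslated sequence, so it is named below by position alone. A SOX core with a TEAD sequence also stood in 4 other SOX2-only windows, 2 at TEAD1, 1 at YAP1 and 1 at ANKRD1, and a SOX core with an AP-1 sequence in 1 more at WWTR1. These 5 were not the strongest of their gene and are not printed.

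Intervals lay thickly across the coactivator genes and TEAD1 and sparsely around the other TEAD genes. WWTR1 had 18 intervals in its window, TEAD1 had 16 and YAP1 had 13. TEAD2 had 2, and TEAD3 and TEAD4 had 1 each. The 4 targets, all short genes, had 5 at CCN1, 6 at CCN2, 5 at ANKRD1 and 6 at AMOTL2. All 10 windows thus held at least 1 interval, where 70.1% of the windows of 20162 protein-coding genes did. SOX2-only intervals were found at 9 of 10 (65.1% of all genes), shared intervals at 8 of 10 (37.6%) and DBD-only intervals at 1 of 10 (4.72%). The difference depended on the flanks, and the share of all genes with a shared interval moved with GC content, as given below. Within gene bodies alone, 4 of 10 held an interval, against 38.6% of all genes, and 3 of 10 a shared one, against 18.7%. Windows of neighbouring genes overlap, so these genome-wide percentages count some intervals more than once. The counts describe 1 list per group with no replicate, so no test between SOX2 and SOX2-DBD was possible.

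**Figure D1:**
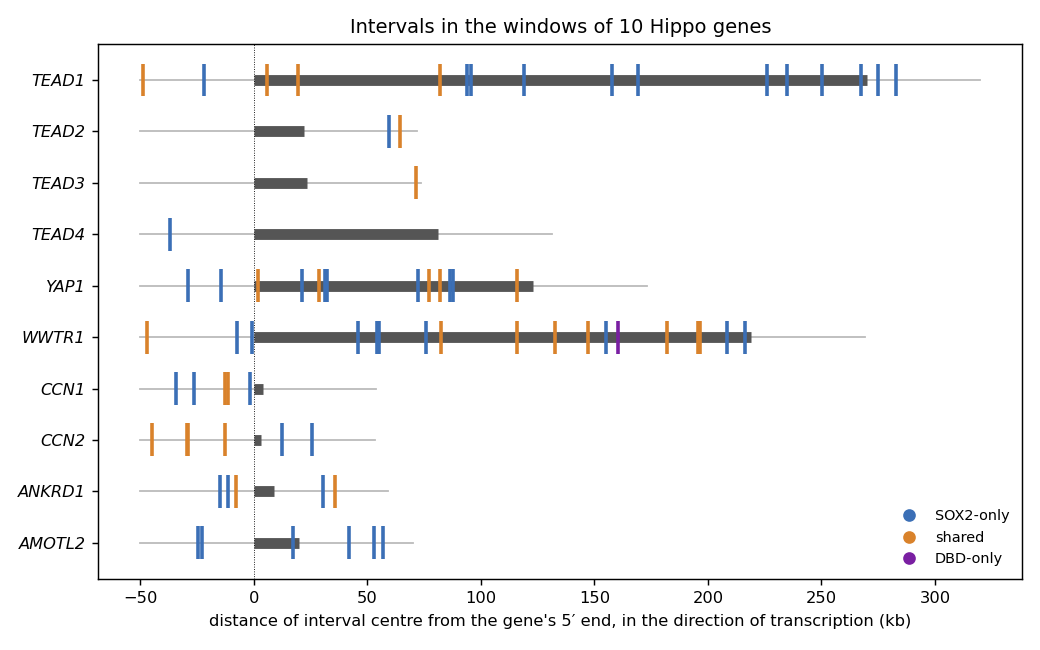
Position of each of the 73 interval centres relative to the 5′ end of its gene, in kb along the direction of transcription. Each row is a gene, the thick grey bar is the gene body, the thin line is the window of 50 kb on either side, and colours give the class; the intervals of TEAD1, YAP1 and WWTR1 lie mostly inside the genes, and those of CCN1, CCN2 and ANKRD1 outside them.

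TEAD1, the longest of the 4 TEAD genes at 270 kb (ENSG00000187079, chr11:12695968-12966284, plus strand), held 12 SOX2-only and 4 shared intervals. Of the 16, 12 had their centre inside the gene. The shared intervals at TEAD1 lay towards its 5′ side, 48.6 kb upstream of the gene and 5.6, 19.4 and 82.0 kb into it, and every interval beyond that point was SOX2-only. In that order, their total signals were 2901 (chr11:12647215-12647473), 3764 (chr11:12701209-12701869), 2453 (chr11:12715141-12715585) and 1307. The strongest of them was matched by the highest SOX2-only interval, chr11:12930467-12931050 in a distal intron, at 3734. The interval at 82.0 kb, chr11:12777873-12777976, was the narrowest shared one near any of the 10 genes at 104 bp. Its region of maximum signal reached beyond its own ends, so its width and its signal need not describe the same stretch.

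None of the intervals at TEAD2, TEAD3 and TEAD4 lay inside the TEAD gene itself. TEAD2 (ENSG00000074219, chr19:49843852-49865714, minus strand) had a shared interval (chr19:49801104-49801397, signal 1811) and a SOX2-only one (chr19:49805862-49806403, signal 3008), both in introns of its neighbour SLC6A16. At TEAD3 (ENSG00000007866, chr6:35441374-35464856, minus strand) the single interval was shared, lay at chr6:35393095-35393384 and had a signal of 2048. Its centre was in an intron of PPARD, which encodes a lipid-sensing nuclear receptor, and the interval also overlapped annotated untranslated sequence. For TEAD4 (ENSG00000197905, chr12:3068496-3149842, plus strand) the single interval was SOX2-only, lay at chr12:3031591-3031780 in an intron of TULP3, and had a signal of 1253, the lowest value listed among the 73. Signals of different classes are set side by side here as listed, since a common scale is not stated. Each of these genes lies in a GC-rich window, with 49.1% GC at TEAD2, 51.7% at TEAD3 and 49.4% at TEAD4, against 42.3% at TEAD1.

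YAP1 (ENSG00000137693, chr11:101981178-102104155, plus strand) held 8 SOX2-only and 5 shared intervals, and 11 of the 13 were inside the gene. Its 5 shared intervals spanned the gene from 1.8 kb to 115.9 kb beyond the 5′ end. A pair of them lay near annotated starts of YAP1 transcripts: chr11:101982772-101983217, 0.25 kb from the nearest, with a signal of 1482, and chr11:102096928-102097193, 0.64 kb from another, with 1581. Between them lay chr11:102009402-102009928 (3604), chr11:102058193-102058385 (2169) and chr11:102063089-102063599 (3057), so the shared intervals at the starts were weaker than those in between. The interval with the highest listed signal near any of the 10 genes was SOX2-only and lay in an intron of YAP1, at chr11:102067032-102068287. It was 1256 bp wide and its total signal of 7903 was above 99.3% of SOX2-only intervals by rank, although its maximum signal was 13 against a class median of 10. A SOX2-only interval with a signal of 4238 followed 357 bp further on, at chr11:102068645-102069603. Neither carried a SOX core, TEAD or AP-1 match in its central window.

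WWTR1 (ENSG00000018408, chr3:149235022-149454501, minus strand) was the gene with the most intervals, 9 SOX2-only, 8 shared and 1 DBD-only, with 15 of the 18 inside the gene. All of the shared intervals but 1 were within the gene, between 82.4 and 196.4 kb from its 5′ end. The other, chr3:149501327-149501706, lay 47.0 kb upstream, 0.46 kb from a start of ANKUB1, with a signal of 4134. Total signal of the shared intervals ran from 1699 to 4434, the highest at chr3:149307213-149307521, and the highest SOX2-only signal was 4005, at chr3:149245759-149246274. The others away from starts were chr3:149272521-149272778 (3254), chr3:149321361-149321976 (3781), chr3:149338624-149339051 (4197) and chr3:149371977-149372243 (1699). A pair of shared intervals, chr3:149257931-149258355 (signal 2245) and chr3:149258720-149259016 (2092), sat 0.09 and 0.02 kb from the starts of short WWTR1 transcripts annotated as targets of nonsense-mediated decay. The DBD-only interval, chr3:149293429-149294413, was 985 bp wide with a total signal of 3778, close to the median width of 1036 bp in its class. Its centre lay 0.12 kb from the start of a protein-coding WWTR1 transcript, and it overlapped annotated untranslated and coding sequence. Its GC content of 49.5% was the highest of the 73 central windows. WWTR1 was also the single gene of the 10 with an interval centre within 1 kb of the 5′ end of the gene, the SOX2-only interval chr3:149455143-149455732 with a signal of 1445. Over all protein-coding genes, 1.87% had one.

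CCN1 and CCN2 encode secreted matricellular proteins and are the targets most often used to read out YAP and TAZ. At CCN2 (ENSG00000118523, chr6:132269316-132272512, minus strand) 4 of the 6 intervals were shared, and all 4 lay upstream, at 12.7, 28.9, 29.5 and 44.8 kb. Their total signals were 2545 at chr6:132284980-132285364, 4308 at chr6:132301194-132301580, 2269 at chr6:132301964-132302130 and 2494 at chr6:132317164-132317537. The SOX2-only intervals of CCN2 lay downstream, with signals of 1798 and 2754, the latter at chr6:132246772-132247300, so the classes were parted by the gene. At CCN1 (ENSG00000142871, chr1:86046444-86050272, plus strand) all 5 intervals were upstream. The nearest, chr1:86044172-86044868, was SOX2-only, lay 1.9 kb upstream and had the highest signal of the 5, at 4071. It stood 0.10 kb from the start of a long noncoding RNA, ENSG00000272691. The shared intervals of CCN1 were at chr1:86033480-86033605, with a signal of 1854, and at chr1:86034751-86035086, with 2713.

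ANKRD1 encodes an ankyrin-repeat protein of muscle that is a strong YAP target in many cells, and AMOTL2 an angiomotin-family protein that binds YAP. ANKRD1 (ENSG00000148677, chr10:92671853-92680844, minus strand) had the lowest median total signal of the 4 targets, 1619, with values from 1424 to 2014. Its 2 shared intervals lay on either side, at chr10:92688799-92688963, 8.0 kb upstream, with 1492, and at chr10:92644843-92645204 downstream, with 2014. The highest of its SOX2-only intervals, chr10:92692072-92692488, had 1975. AMOTL2 (ENSG00000114019, chr3:134074189-134094321, minus strand) had 6 intervals and all were SOX2-only. With 0 of 6 shared, the Wilson upper limit is 39.0%, and the limit set at 3 counts allows a share of up to 50%. The strongest at AMOTL2, chr3:134116746-134117927, lay 23.0 kb upstream with a signal of 4609, and 1 lay inside the gene, at chr3:134076794-134077283 with 2746.

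**Figure D2:**
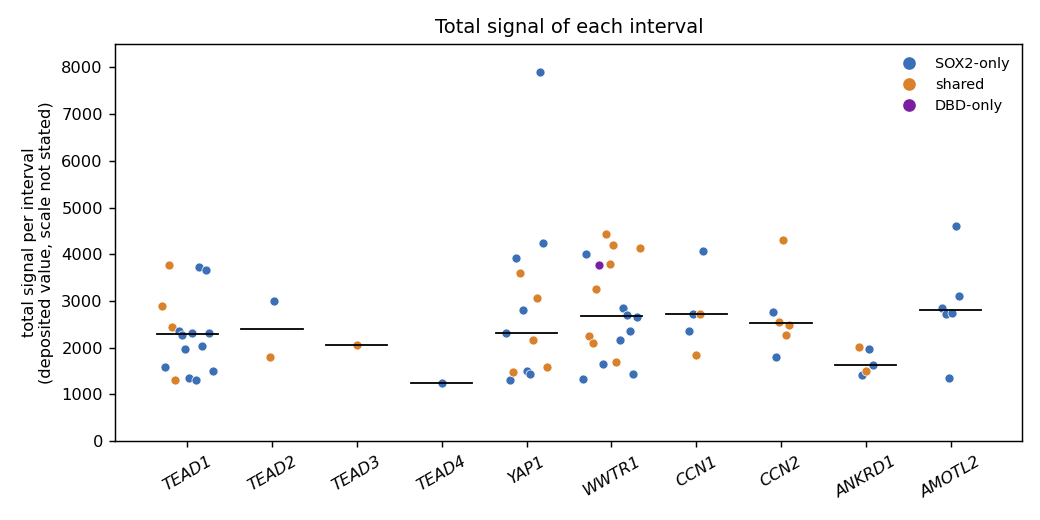
Total signal of each of the 73 intervals (vertical axis, the authors' deposited value, scale not stated), by gene and coloured by class, with a black line at the median of each gene. Most values lie between 1253 and 4609, and the SOX2-only interval at 7903 in YAP1 stands above them.

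Relative to the length of each window, the density of intervals was 58.3 per Mb at YAP1 (exact Poisson 95% interval 31.0 to 99.7), 58.1 at CCN2 (21.3 to 127) and 56.3 at WWTR1 (33.4 to 89.0). Next came AMOTL2 at 49.9 (18.3 to 109), CCN1 at 48.2 (15.6 to 112), ANKRD1 at 45.9 (14.9 to 107) and TEAD1 at 43.2 (24.7 to 70.2). The limits of these 7 genes overlap throughout, so their order is not resolved. The lowest were TEAD2 at 16.4 (1.99 to 59.3), TEAD3 at 8.10 (0.205 to 45.1) and TEAD4 at 5.51 (0.140 to 30.7). The upper limit of TEAD4 lay below the lower limits of YAP1 and WWTR1. Poisson and Wilson limits here cover counting error alone, and the depth of the libraries is unknown.

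The median density of the 10 windows was 47.0 per Mb, against 12.7 per Mb over all protein-coding gene windows. Density moved with base composition. With protein-coding gene windows split into 5 equal groups from lowest to highest GC content, the median density was 33.0, 28.1, 17.9, 8.90 and 0 per Mb. In the same order, 55.6%, 54.1%, 41.2%, 25.3% and 12.1% of the windows held a shared interval, against 37.6% over all. TEAD1, YAP1, WWTR1, CCN1 and ANKRD1 fell in group 2 and CCN2 in group 1, the lowest. TEAD2, TEAD4 and AMOTL2 fell in group 4 and TEAD3 in group 5. Set beside the median of their own GC group, 9 of 10 genes were above it, and TEAD4, at 5.51 against 8.90, was below. The lower Poisson limit was above that median at YAP1, WWTR1 and AMOTL2, the last with 18.3 against 8.90. The group of TEAD3 has a median of 0, so any interval there puts the gene above it, and its place among the 9 carries no weight. The part of GC content in the differences between the genes was not tested. Beside all protein-coding genes with a window within 10% of the same length, 8 genes had more intervals than the median, TEAD3 had the same number and TEAD4 had fewer. At TEAD1, for example, there were 16 against a median of 10.0 over 408 genes, at WWTR1 18 against 9 over 581, and at AMOTL2 6 against 1.00 over 6578.

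**Figure D3:**
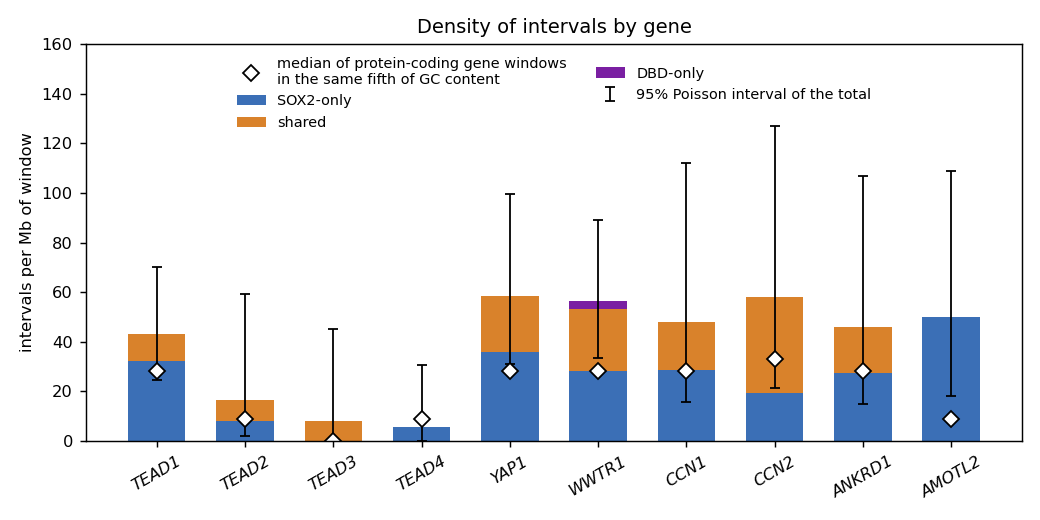
Intervals per Mb of window for each gene, stacked by class, with the exact Poisson 95% interval of the total as a bar. Diamonds mark the median of all protein-coding gene windows in the same of 5 groups by GC content; the bars of 9 genes end above their diamond and that of TEAD4 ends below it.

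Of 72 SOX2 intervals, 27 (37.5%, Wilson 95% interval 27.2 to 49.0) were shared, against 14300 of 57907 (24.7%) in the whole list and 23.7% over the windows of all protein-coding genes. Without WWTR1, which supplied 8 of the 27, the share was 34.5% (23.4 to 47.7), an interval that includes the share of the whole list. The limits also included it with flanks of 10 kb, at 36.4% (23.8 to 51.1), and in the upper 50% of each list by total signal, at 42.4% (27.2 to 59.2) against 29.6% of that whole list. The share near these genes was thus not set apart from the genome under every setting. By gene, it was 4 of 6 at CCN2 (66.7%, 30 to 90.3), 8 of 17 at WWTR1 (47.1%, 26.2 to 69.0), 5 of 13 at YAP1 (38.5%, 17.7 to 64.5) and 4 of 16 at TEAD1 (25.0%, 10.2 to 49.5). At CCN1 and at ANKRD1 it was 2 of 5 (40.0%, 11.8 to 76.9). These limits overlap, and the genes cannot be ordered by them. TEAD1, YAP1 and WWTR1 together had 17 of 46 shared (37.0%, 24.5 to 51.4) and the 4 targets 8 of 22 (36.4%, 19.7 to 57.0). Conversely, 1 of the 28 SOX2-DBD intervals was DBD-only (3.57%, 0.633 to 17.7), against 6.04% of the whole list. Each shared interval has the same position and values in both lists. Whether the way the lists were put together set the shared part was not tested. The group in which the signal of shared intervals was measured is not given in the sources used here.

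Of the 73 intervals, 39 had their centre inside their gene, 22 upstream and 12 downstream. Among the shared ones, 15 were inside, 9 upstream and 3 downstream. A centre within 1 kb of an annotated start of any gene was found for 8 (11%, 5.66 to 20.2; whole list 6.84%), and 6 of these were starts of the same gene, at YAP1 and WWTR1. A further 3 (4.11%, 1.41 to 11.4; whole list 4.44%) had the centre in an exon, 53 (72.6%, 61.4 to 81.5; 64.0%) in an intron and 9 (12.3%, 6.62 to 21.8; 24.8%) outside genes. Windows drawn around genes set the share outside genes in part. Neighbouring intervals were less than 1 kb apart in 6 cases, with 2 at YAP1, 2 at WWTR1, 1 at CCN2 and 1 at AMOTL2. The median gap was 5.69 kb at YAP1, 11.7 kb at WWTR1 and 14.8 kb at TEAD1.

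SOX2-only intervals were wider than shared ones, as in the whole list. Median width was 529 bp (range 190 to 1256) in the 45 SOX2-only and 336 bp (104 to 661) in the 27 shared intervals, against 559 and 373 bp genome-wide. Shared rows stand identically in both lists, and the narrowest in the whole list was 1 bp, against 29 bp for SOX2-only. Whether the way the lists were put together set the width of shared intervals was not tested. Median total signal was 2316 (1253 to 7903) and 2453 (1307 to 4434), against 2278 and 2742. The region of maximum signal reached outside the interval in 6 of the 27 shared intervals (22.2%, 10.6 to 40.8; whole list 24.4%). In the down-sampled SOX2 list 43 of the 72 were found again (59.7%, 48.2 to 70.3; whole list 64.3%), with 60.0% of SOX2-only and 59.3% of shared intervals. The SOX2-only interval of highest signal was not found again at YAP1, WWTR1, AMOTL2, TEAD1, CCN2, ANKRD1 and TEAD4. At CCN1 and TEAD2 it was.

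The SOX core was present in the central window of 34 of 73 intervals (46.6%, 35.6 to 57.9), close to the 47.2% of all 58827. In windows 10 kb downstream it was present in 22 of 73 (30.1%, 20.8 to 41.4), against 27.6% for all. Matches were found in 9 of 16 intervals at TEAD1, 8 of 18 at WWTR1, 5 of 13 at YAP1, 3 of 6 at CCN2 and AMOTL2 and 3 of 5 at ANKRD1, and also in both at TEAD2 and the 1 at TEAD4. None of the 5 at CCN1 held one in its central window. The TEAD sequence was present in 14 (19.2%, 11.8 to 29.7) against 16.2% of all intervals, and 10 kb downstream in 6.85% (2.96 to 15.1) against 10.4%. It was found in 6 of the 16 intervals at TEAD1, 3 at YAP1, 2 at WWTR1, 2 at CCN2 and 1 at ANKRD1. AP-1 matches were present in 8 (11%, 5.66 to 20.2) against 9.22%. They were found in 6 of 27 shared intervals (22.2%, 10.6 to 40.8; whole list 16.9%) and in 2 of 45 SOX2-only intervals (4.44%, 1.23 to 14.8; 6.59%). At the level of counting error, the shares of all 3 sequences near the Hippo genes were not separated from those of the whole list.

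**Figure D4:**
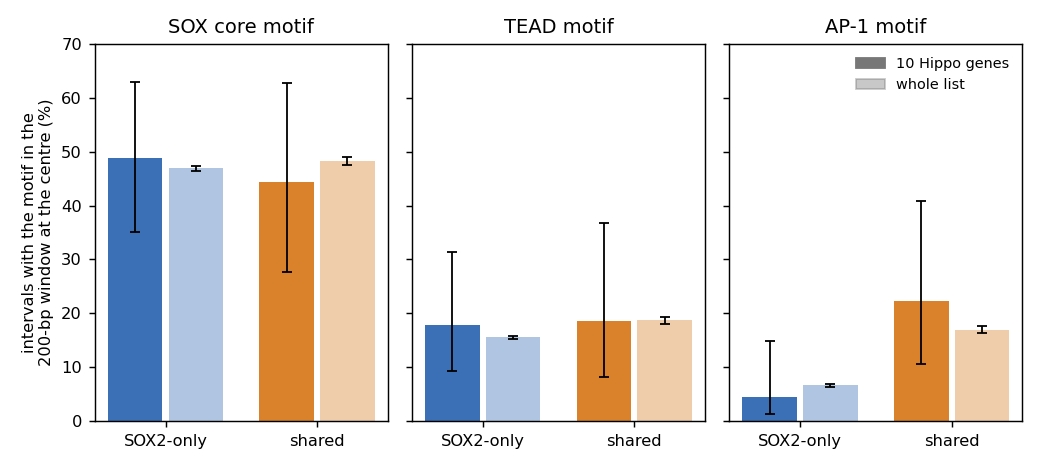
Percentage of intervals with the SOX core, TEAD or AP-1 sequence in the 200-bp window at the centre, for SOX2-only and shared intervals near the 10 Hippo genes (dark) and in the whole list (pale), with Wilson 95% intervals. Each dark bar's interval includes the pale bar, and AP-1 stands at 22.2% in shared and 4.44% in SOX2-only intervals.

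A SOX core and a TEAD match occurred in the same window in 10 of 73 intervals (13.7%, 7.61 to 23.4), against 7.45% of all intervals, whose value lies just below that interval. A SOX core and an AP-1 match did so in 5 (6.85%, 2.96 to 15.1, against 4.19%), and a TEAD and an AP-1 match in 2 (2.74%, 0.755 to 9.45, against 1.42%). Several motif shares were set beside the whole list. That of the SOX core with TEAD was not obtained for other window sizes or 10 kb downstream. Its narrow gap is therefore not read as a difference. All 3 sequences met in shared intervals of CCN2 and WWTR1, both printed above. In the CCN2 window, 44.8 kb upstream of the gene, the TEAD match at position 15 runs into the AP-1 match at position 19 as GGAATGACTCA, and a SOX core follows at position 149. This fused form, or the same with GAGTCA in place of GACTCA, was present in 79 of 58827 windows (0.134%) and in 1 of the 73. Within the WWTR1 window, the AP-1 match at position 148 is followed by a SOX core at position 159, with the TEAD match at position 73. The CCN2 interval with the highest signal, 28.9 kb upstream, holds TEAD matches at positions 104 and 186 around a SOX core at position 145. In the window of the narrow TEAD1 interval, TEAD matches at positions 47 and 53 stand directly end to end as CATTCCCATTCC. This window is wider than the interval, and the first match begins before the interval does. The form was present in 5 of 58827 windows (0.00850%). Neither it nor the fused form was among the sequences sought at the outset, and other spacings were not counted. Both occur in windows printed above, so their rarity among all windows carries no weight. At the YAP1 interval near the 5′ end of the gene, the SOX core is at position 125 and the TEAD match at position 191. These are matches of letters, and binding of TEAD or AP-1 proteins was not measured.

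Beyond the 10 genes, 25 other genes of the pathway and 16 further YAP/TAZ targets were examined in the same way. Of the pathway genes, 23 of 25 had an interval and 21 had a shared one (70.1% and 37.6% of all protein-coding genes), with a median density of 30.3 per Mb. The 25 windows spanned 5.79 Mb, and the median window of all protein-coding genes was 127 kb. The percentages over all genes are not matched to these windows in length or GC content, so they do not set the pathway apart. The counts were highest at STK3, the MST2 kinase, with 39 intervals, of which 16 were shared. FRMD6, an upstream scaffold, had 23 (7 shared), VGLL3, a TEAD cofactor, 19 (5 shared), PTPN14, a phosphatase that binds YAP, 18 (5 shared), and FAT4, a large protocadherin, 17 (4 shared). A DBD-only interval was found at SAV1, the scaffold of the kinase cassette, beside 10 SOX2-only and 1 shared. AMOT and TAOK2, named because they were the exceptions, had 0. The kinases LATS1 and LATS2, which phosphorylate YAP and TAZ and are named for that role after their values were seen, had 4 each.

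Of the further targets, all 16 had an interval and 14 had a shared one (again 70.1% and 37.6% of all genes), with a median density of 52.5 per Mb. Here too the percentages over all genes are not matched in window length or GC content. RBMS3, by far the longest at 1436 kb, had 83 intervals (28 shared and 1 DBD-only), ASAP1 25 (8 shared) and CRIM1 20 (9 shared and 1 DBD-only). TGFB2, a ligand of the TGF-beta family, had 16 (6 shared) and NT5E, the CD73 ectonucleotidase, 15 (2 shared). Of the SOX2 intervals, 30.8% (25.2 to 37.0) were shared at the pathway genes and 33.5% (27.6 to 39.9) at the further targets. Both shares lie inside the limits for the 10 genes, and both lower limits lie above the 24.7% of the whole list. However, STK3 alone supplied 16 of the 72 shared intervals at the pathway genes, and RBMS3 28 of the 75 at the further targets. Whether the lower limits stay above 24.7% without these long genes was not tested.

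**Figure D5:**
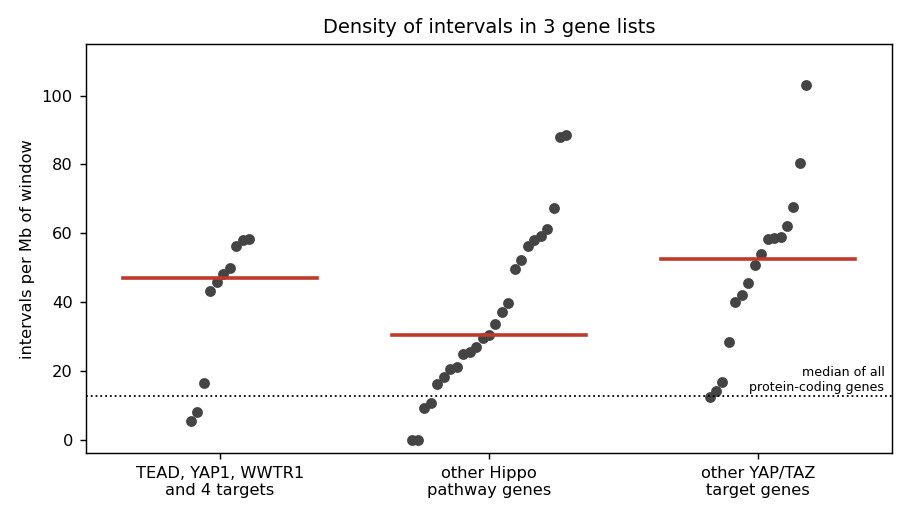
Intervals per Mb of window for each gene (points) of the 10 Hippo genes, 25 other pathway genes and 16 other YAP/TAZ targets, with the list median in red and the median of all protein-coding genes, 12.7 per Mb, as a dotted line. The medians of the lists are 47.0, 30.3 and 52.5 per Mb, and the points of the lists overlap.

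The gene with the pattern of classes most like that of WWTR1 was HIVEP2, among 580 protein-coding genes with a window within 10% of its length. It had 10 SOX2-only, 8 shared and 1 DBD-only interval, a summed difference of 1 interval over the 3 classes. SGIP1 (9, 7 and 0) and CRIM1 (10, 9 and 1) followed with a difference of 2, which ANKRD28 and TFEC equalled.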

How the data were processed

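CUT&RUN peak lists of V5-tagged SOX2 and SOX2-DBD in BJ fibroblasts were analysed, 1 full list per group (replicate 1) and a down-sampled SOX2 list. Whether replicates were pooled is not given in the sources used here. The submitters' processing notes name Bowtie2 2.3.4.1, SAMtools, bedtools 2.27.1, SEACR 1.3 and deepTools 3.5.0, and hg19, with no role stated. For every interval the deposited full lists give a total and a maximum signal. Their normalization and the depth are unknown, so ranks by signal were taken within a class, signals of different classes were set side by side as listed, and a low count cannot be told from shallow sequencing. The deposited down-sampled list gives positions and widths in bp (unit other) and no signal, and the deposited seventh column of the SOX2 list holds other values of unstated meaning. Duplicate rows (1654 in each full list) were counted once. The 10 genes, gene lists and motifs were chosen with earlier results of these data known.

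Windows, classes and motif matches were computed on GRCh37 with pyfaidx 0.9.0.4, pandas 2.3.3, numpy 2.4.6 and scipy 1.17.1 under python 3.11.15, and drawn with matplotlib 3.10.9; 0 intervals ran past a chromosome end. Overlap was counted from 1 bp. A shared interval was a row identical in both lists. Named were all 10 genes, every shared and DBD-only interval, the SOX2-only interval of highest signal per gene, intervals within 1 kb of a start of the gene, the 5 genes with most intervals and those with DBD-only intervals per further list, and the 3 genes most like WWTR1. On simulated data, 500 of 500 windows and 100 of 100 planted SOX core sequences were recovered. Alternatives varied the window, signal threshold, overlap rule, duplicates, merging, list and motif window.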

Additional observations from a re-analysis of the deposited data

Results flagged for a closer look

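A last column in the SOX2 list, the seventh, carries numbers whose meaning is not stated. It was filled for shared intervals alone and entered no comparison above. Of the 27 shared intervals near the Hippo genes, 8 (29.6%, Wilson 95% interval 15.9 to 48.5) had a value of at least 1, against 34.5% of all 14300. It is given because it is a nonzero value in data not otherwise used, above the 11.1% that a count of 0 in 27 would allow, a mark that nearly any count passes. The limits include the share of all shared intervals, so the values do not set these genes apart. The value was 2 at the TEAD1 interval 19.4 kb into the gene and at the WWTR1 interval 47.0 kb upstream, and 1 at 6 others. The SOX core was present somewhere in the interval in 6 of the 8, and in 13 of the 19 with a value of 0.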

How the results depend on the processing

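No paired analysis was possible because only 1 list per group was analysed here, and replicates could not be left out in turn for the same reason. Of 72 values under alternatives, 45 kept within 1.5 times the reported count or within its counting limits. The part of the SOX2 intervals also in the SOX2-DBD list ranged from 34.5% (without WWTR1, added after the data were seen) to 42.4% (upper 50% by total signal, whole list 29.6%). Window and threshold set the counts. Gene bodies alone held 39 intervals (23 SOX2-only, 15 shared), at 4 genes (38.6% of all genes), with shared ones at 3 (18.7%). Flanks of 10 kb gave 45 (28 and 16), with shared ones at 4 genes (22.9%). Flanks of 100 kb gave 70 SOX2-only. The upper 50% by signal gave 34 (19 and 14), with shared ones at 5 genes. No share of all genes was obtained for that setting, so the count of 5 cannot be set against a background. Density pooled over the 10 windows, 41.1 per Mb, was 19.1 per Mb in the upper 50% and 24.2 per Mb in the down-sampled list. Within gene bodies alone, 7 of the 16 further targets had a shared interval, against 18.7% of all genes. The SOX core was found in 26.0%, 69.9% and 74.0% of 100-bp windows, 400-bp windows and whole intervals (all intervals 26.8%, 70.5% and 77.3%), the TEAD sequence in 5.48%, 31.5% and 31.5% (8.44%, 28.6% and 35.8%). AP-1 rose to 21.9% in 400-bp windows and 23.3% in whole intervals (15.6% and 18.9%). Starts within 5 kb gave 31.5% and protein-coding transcripts alone 4.11%, with no share of the whole list obtained for either. Each alternative changes by construction the windows, intervals, sequence length or starts counted. The unknown depth limits every count.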

Other observations

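Many of the intervals near the Hippo genes lay inside neighbouring genes, 23 of the 73, of which 11 were shared. Near CCN1, 4 of the 5 intervals (2 shared) lay in DDAH1, which encodes an enzyme that breaks down asymmetric dimethylarginine. All 6 near CCN2 lay in introns of the long noncoding RNA LINC01013. At ANKRD1, 2 (1 shared) lay in RPP30, a subunit of ribonuclease P, and at AMOTL2, 2 lay in the long noncoding RNA LINC02004. Both intervals near TEAD2 were in SLC6A16, and the single intervals near TEAD3 and TEAD4 were in PPARD and TULP3. The upstream intervals of WWTR1 included 1 in COMMD2 and 1 in ANKUB1, and that of YAP1 with the higher signal, 2316, was in CFAP300. Which gene, if any, responds to these intervals was not measured.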
